A study of Mus musculus with 8 samples.

Results

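The genes described here are 40 genes of the motile cilium, measured in whole mouse lung. They were chosen by name from the biology of the motile axoneme, with earlier results of these data already known. A gene was kept when, in 1 group or more, its probe exceeded background clearly on each of the arrays. All 40 of the 40 named genes passed that filter and were above background on all 8 arrays, and they stand among 25830 genes measured in the series.

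The mice were male bone marrow chimeras aged 22 weeks, and every mouse, the wild-type chimeras included, had received diphtheria toxin 72 hours before its lungs were taken. LysM-DTR mice carry the diphtheria toxin receptor under the promoter of lysozyme M (Lyz2), a gene of myeloid cells that is also active in alveolar type 2 cells. In LL both the donor marrow and the recipient were LysM-DTR. In WL wild-type marrow had been given to LysM-DTR recipients. In LW the marrow was LysM-DTR and the recipient wild type, and in WW both were wild type. Each group had 2 mice with 1 array each. The labels do not say how far donor cells had replaced the recipient's own, and no array is of a mouse without toxin.

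Levels are log2 intensities relative to the 75th percentile of the same array, so that a level of 0 is that percentile, and levels of different probes cannot be set against each other. That percentile lay between 208.6 and 324.4 intensity units, and the share of non-control spots marked well above background was 66.3 to 72.3% per array. Lyz2 had levels of 4.67 and 4.94 in LL, 8.70 and 7.36 in WL, 8.99 and 8.84 in LW, and 9.05 and 9.09 in WW. Markers of lung tissue (Sftpc, Scgb1a1 and Ager) were above background on all 8 arrays. The WL mice were unlike each other, with a correlation across genes of 0.96 against 0.99 in LL, 0.99 in LW and 0.992 in WW, so their values are given mouse by mouse. The array barcodes end in 2 numbers, read here as the place on the slide. The first number was 1 for LL and both WL mice and 2 for LW and WW, so it went with the recipient genotype. The second was 1 or 2 with LysM-DTR marrow and 3 or 4 with wild-type marrow. Genotype and place on the slide therefore cannot be told apart.

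Motile cilia are the beating cilia of multiciliated airway cells and move mucus along the airway. Each holds an axoneme of microtubule doublets around a central pair, on which outer and inner dynein arms slide the doublets, while the nexin-dynein regulatory complex, radial spokes and central pair control the beat. A multiciliated cell first amplifies its centrioles, under regulators that include Gmnc, Mcidas and Ccno, and then switches on the axoneme genes through Foxj1 and the RFX factors.

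Nearly the whole set of axoneme genes had lower levels in LL than in WW lungs, while Foxj1 had like levels and Ccno, a cyclin of centriole amplification, was far higher. Over the 40 genes the median LL minus WW difference was -0.74 on the log2 scale, with a range of -1.70 to 2.2. Of the 40 genes 38 were below 0, beside 47.6% of all genes measured. A total of 29 genes were at least 0.5 lower in LL, beside 17.5% of all genes, and 10 of these were at least 1 lower, beside 7.71%. Every LL array lay below every WW array for 36 of the 40 genes, beside 32.4% of all genes, and above for 1 gene (Ccno), beside 37.0% of all genes. Lung is a mixture of cells, and fewer ciliated cells and less of these RNAs per cell cannot be told apart in these data.

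None of the 40 genes passed limma's test between LL and WW at an adjusted p under 0.05, beside 3.13% of all genes called. The adjusted p ran from 0.0826 to 0.951 over the 40 genes, and 23 had an unadjusted p under 0.05 (22 lower and 1 higher), beside 12.4% of all genes in each direction. The spread between the WL mice enters the error of every comparison. Over the 40 genes the median SD between mice was 0.09 in LL, 0.64 in WL, 0.07 in LW and 0.09 in WW, against 0.12, 0.31, 0.09 and 0.10 over all genes in the same order of groups. In a fit without both WL arrays 32 of the 40 genes passed the same threshold as lower in LL, beside 14.8% of all genes, and Ccno passed as higher, beside 17.3% of all genes. Fitted on the LL and WW arrays alone, 28 passed as lower, beside 11.3% of all genes, and 1 as higher, beside 12.9%.

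**Figure D1:**
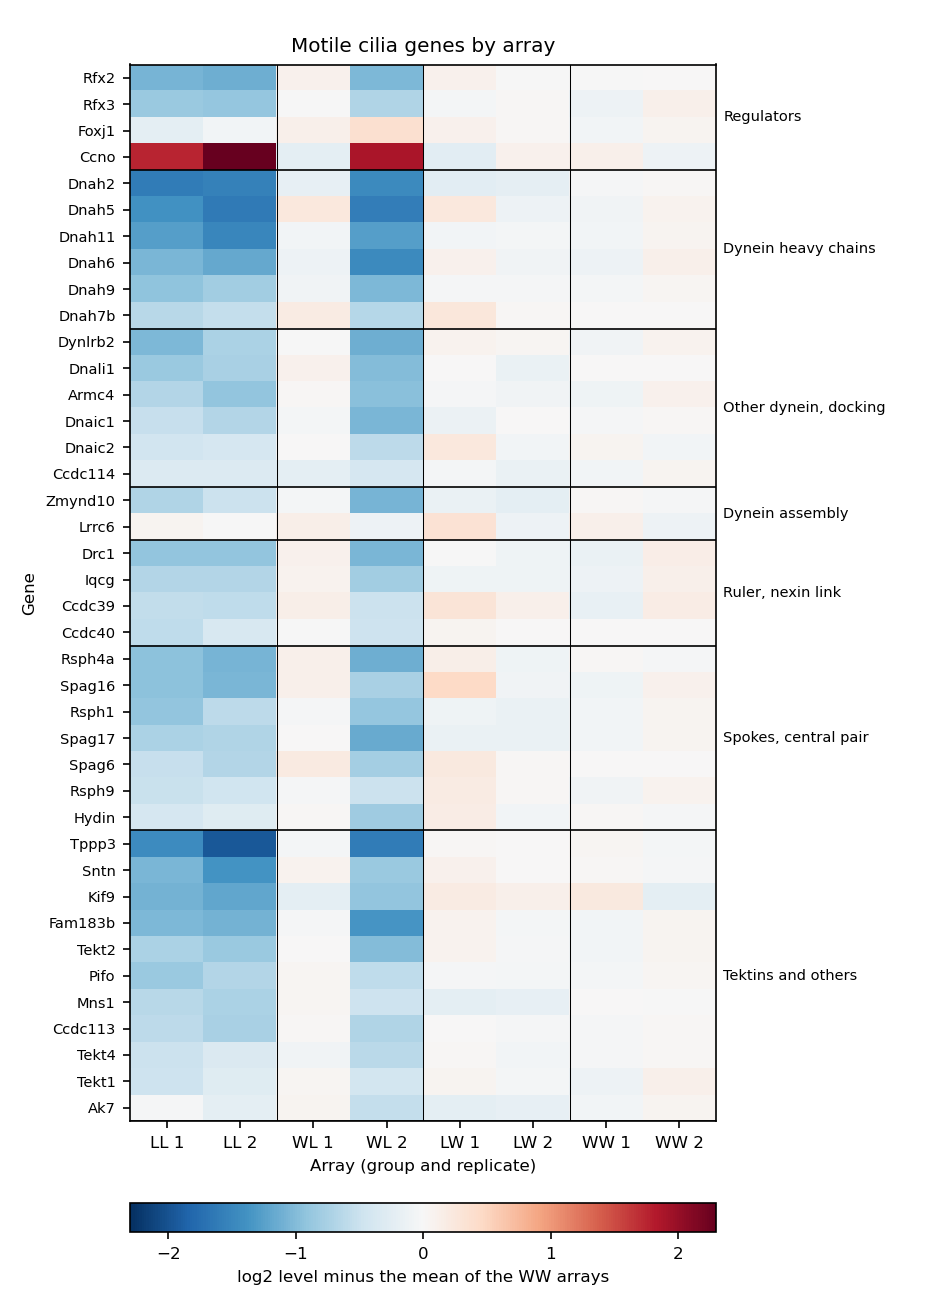
Each row is 1 of the 40 genes, grouped by role, and each column 1 array. The colour gives the log2 level minus the mean of the WW arrays. The LL columns and WL replicate 2 are blue for nearly all axoneme genes and red for Ccno, while WL replicate 1, the LW and the WW columns are near white.

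The WL mice carried the toxin receptor in the recipient's own cells and not in the marrow graft, and they were split, one mouse close to WW and the other close to LL. In WL replicate 1 all 40 genes were within 0.3 of the WW mean, beside 79.0% of all genes, with a median of 0.01 and a range of -0.23 to 0.25. In WL replicate 2 the median was -0.84 with a range of -1.60 to 1.88. This mouse lay below both WW arrays for 38 genes, beside 48.6% of all genes, and at least 0.5 below the WW mean for 32 genes, beside 26.6% of all genes. Its levels were close to those of LL, with a median difference from the LL mean of -0.12 over the 40 genes, and 27 genes were below the LL mean. For the 29 genes that were at least 0.5 lower in LL, the shift of WL replicate 2 from the WW mean was 0.70 to 1.77 times the shift of LL, with a median of 1.12. None of the 40 genes passed limma's test between WL and WW (adjusted p from 0.486 to 0.982, with 0 at an unadjusted p under 0.05, beside 8.18% of all genes), beside 0.00387% of all genes called. The median WL minus WW difference of -0.39 rests on mice that were unlike each other. Without WL replicate 1 it was -0.84 and without WL replicate 2 it was 0.01, each value from 1 WL mouse.

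LW lungs, with the receptor in the marrow alone, were close to WW lungs for these genes. The median difference from the WW mean was 0.05 in LW replicate 1 and -0.05 in LW replicate 2, and 37 genes were within 0.3 of the WW mean on both LW arrays, beside 72.9% of all genes. Of the 40 LW minus WW differences 19 were below 0, beside 55.1% of all genes, and none passed the test (every adjusted p was 1, and 0 had an unadjusted p under 0.05, beside 2.2% of all genes), beside 0.0542% of all genes called. Against LW in place of WW, LL had a median difference of -0.72 and 38 genes below 0, beside 45.6% of all genes. Every LL array lay below every LW array for 37 genes, beside 31.6% of all genes. None of the 40 passed this test either (adjusted p from 0.0638 to 0.838), beside 2.8% of all genes called, with 22 at an unadjusted p under 0.05, beside 25.7% of all genes. In the fit without both WL arrays 33 passed as lower, beside 14.4% of all genes, and 1 as higher, beside 18.5%. On the LL and LW arrays alone 29 passed as lower, beside 11.9%, and 1 as higher, beside 15.7%. The comparisons with WW and with LW share the LL arrays.

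**Figure D2:**
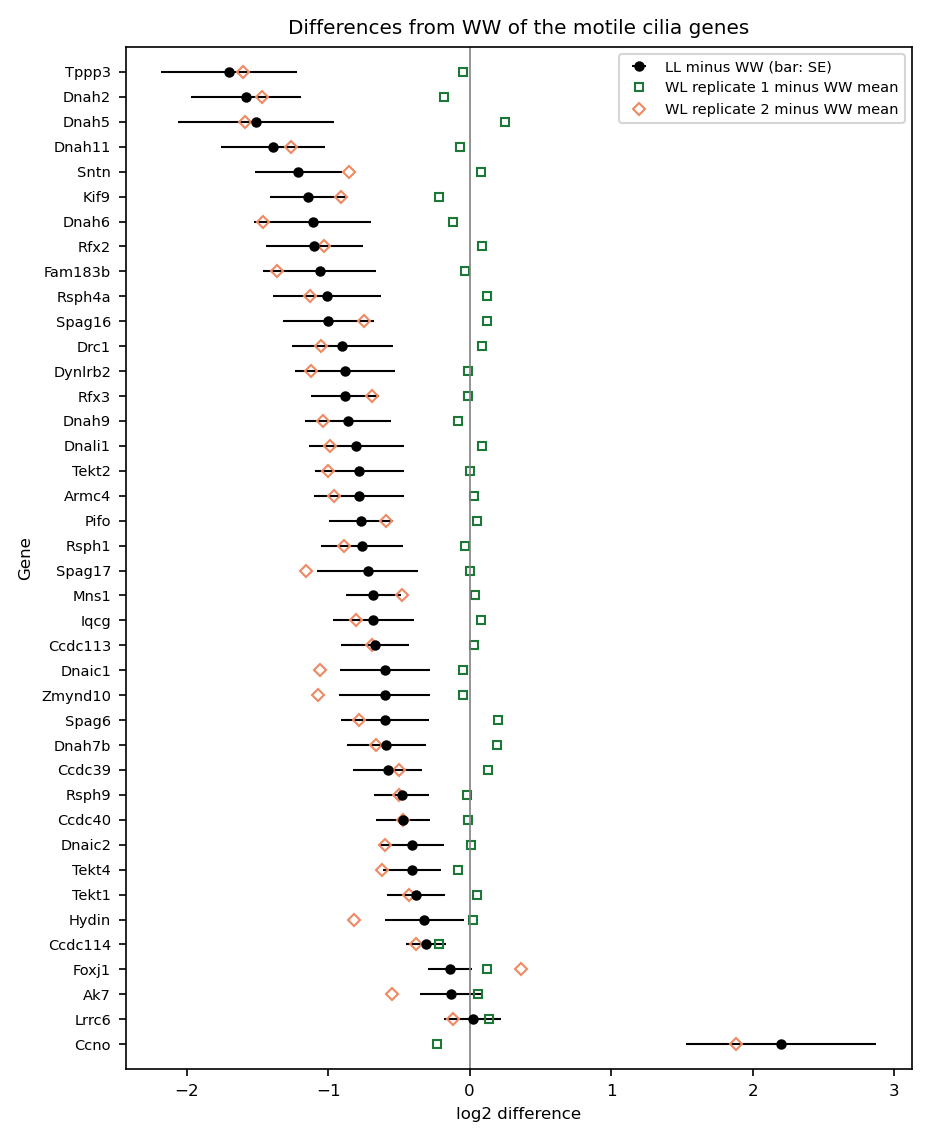
Filled points give the LL minus WW difference of each gene on the log2 scale, with its standard error from limma as the bar. Open symbols give the single WL mice minus the WW mean. WL replicate 2 follows LL for most genes, from -1.60 to 1.88, and WL replicate 1 stays between -0.23 and 0.25.

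Among the regulators, the RFX factors followed the axoneme genes and Foxj1 did not. Foxj1, the forkhead factor that drives the motile cilium programme, had levels of 1.81 and 1.96 in LL, 2.15 and 2.38 in WL, 2.11 and 2.05 in LW, and 1.96 and 2.10 in WW. LL and WW met at 1.96, and the LL minus WW difference was -0.14 (SE 0.153, n = 2 mice per group, limma adjusted p = 0.576). WL replicate 2, which was low for the axoneme genes, had the highest Foxj1 level of the 8 arrays. The Foxj1 probe lies at chr11:116192214-116192273 on mm9, the build of the array annotation.

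Rfx2 and Rfx3 encode factors that bind X-box motifs in promoters of cilia genes. Rfx2 had levels of -1.84 and -1.88 in LL, -0.68 and -1.79 in WL, -0.66 and -0.77 in LW, and -0.77 and -0.75 in WW. Both LL arrays and WL replicate 2 were low and the other 5 arrays lay within a narrow band, and the LL minus WW difference was -1.10 (SE 0.343, limma adjusted p = 0.136, and 0.00314 without both WL arrays). Rfx3 had -0.93 and -0.96 in LL, -0.07 and -0.75 in WL, -0.11 and -0.04 in LW, and -0.19 and 0.05 in WW. Its groups did not overlap between LL and WW, with a difference of -0.88 (SE 0.240, limma adjusted p = 0.108, and 0.00691 without both WL arrays). The probes lie at chr17:56939508-56939567 for Rfx2 and chr19:27836250-27836309 for Rfx3.

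Ccno encodes cyclin O, which multiciliated cells need to make their many centrioles, and it was the single one of the 40 genes with a large difference in the upward direction. Its levels were 0.74 and 1.65 in LL, -1.24 and 0.87 in WL, -1.26 and -0.92 in LW, and -0.90 and -1.11 in WW. Both LL arrays and WL replicate 2 were above 0 and the other 5 arrays were at -0.90 or lower. The LL minus WW difference was 2.2 (SE 0.674, limma adjusted p = 0.131, and 0.00872 without both WL arrays), a 4.61-fold higher mean in LL. The Ccno probe lies at chr13:113780810-113780869.

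**Figure D3:**
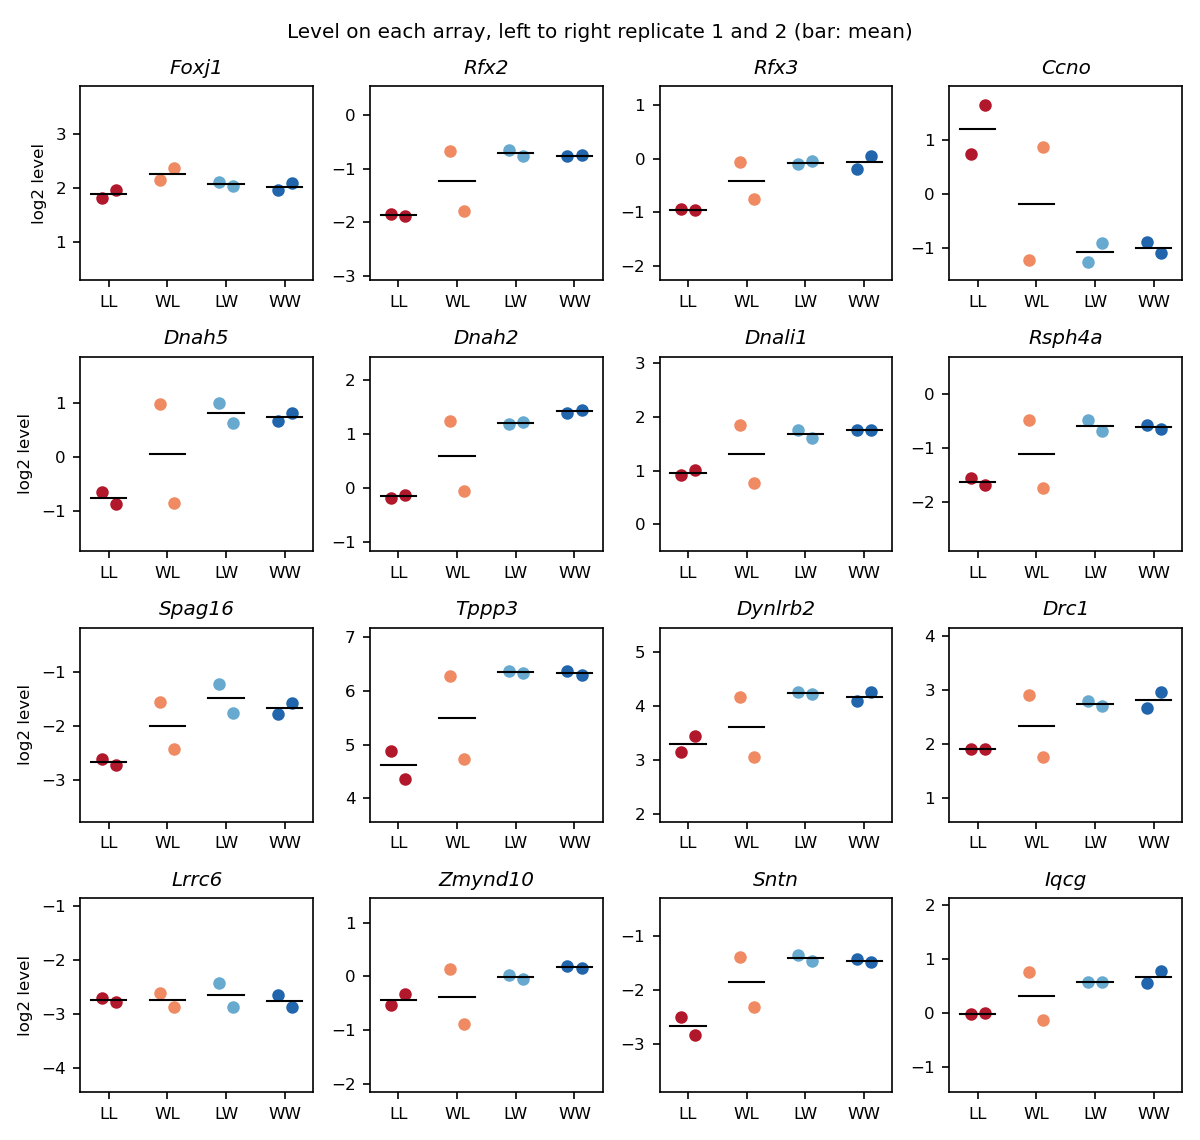
Points are the log2 levels of 16 genes on each array, replicate 1 left of replicate 2, and bars are group means. Every panel spans the same range of log2 units. In most panels the LL pair and WL replicate 2 lie below the other arrays, whereas Foxj1 and Lrrc6 show no such split and Ccno shows it upside down.

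Since the RFX factors bind promoters of axoneme genes, the promoters of the 40 genes were searched for letters of their motifs. RefSeq promoter windows on GRCm38.p6, from 250 bases before to 50 bases after the start, were at hand for 34 of the 40 genes. A full X-box was searched as GTTNCC followed after 0 to 3 bases by GGNAAC, its single arm as GTTGCCA and the core of forkhead sites as GTAAACA, each on both strands. The X-box was found for 2 of the 34 genes (5.88%), Fam183b and Pifo, beside 0.936% of all 27025 genes with a window. The single arm was found for 11 of the 34 genes (32.4%), beside 5.02% of all genes with a window. These 11 were Ccno, Dnah7b, Tekt1, Hydin, Drc1, Zmynd10, Pifo, Sntn, Mns1, Iqcg and Kif9, and in Pifo the arm lies inside the X-box. The forkhead core was found for Ak7 and Sntn (5.88%), beside 4.05% of all genes. A match says only that these letters are present.

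The windows below show the X-box or RFX arm, in capitals, in genes whose levels were lower in LL and in Ccno, whose level was higher, so that the letters can be compared. Each is 100 bases on the strand of its gene, written 5′ to 3′, and all but that of Ccno end at the base before the start.
Fam183b, chr11:58801961-58802060, minus strand: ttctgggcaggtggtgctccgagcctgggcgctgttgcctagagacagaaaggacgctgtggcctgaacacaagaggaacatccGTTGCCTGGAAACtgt
Pifo, chr3:106001498-106001597, minus strand: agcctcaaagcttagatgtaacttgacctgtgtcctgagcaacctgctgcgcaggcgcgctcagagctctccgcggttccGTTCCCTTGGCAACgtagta
Sntn, chr14:13670776-13670875, plus strand: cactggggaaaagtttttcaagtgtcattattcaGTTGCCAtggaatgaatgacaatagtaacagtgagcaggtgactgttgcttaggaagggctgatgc
Kif9, chr9:110476894-110476993, plus strand: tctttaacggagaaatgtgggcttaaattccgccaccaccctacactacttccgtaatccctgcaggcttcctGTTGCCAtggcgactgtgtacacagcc
Drc1, chr5:30281293-30281392, plus strand: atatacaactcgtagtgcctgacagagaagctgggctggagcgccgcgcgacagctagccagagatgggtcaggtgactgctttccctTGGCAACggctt
Iqcg, chr16:33056187-33056286, minus strand: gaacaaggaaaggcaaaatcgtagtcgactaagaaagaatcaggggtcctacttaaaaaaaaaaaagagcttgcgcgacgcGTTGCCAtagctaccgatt
Tekt1, chr11:72361883-72361982, minus strand: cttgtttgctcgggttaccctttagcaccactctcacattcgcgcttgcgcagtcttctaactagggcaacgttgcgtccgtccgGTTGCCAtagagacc
Ccno, chr13:112987552-112987651, plus strand: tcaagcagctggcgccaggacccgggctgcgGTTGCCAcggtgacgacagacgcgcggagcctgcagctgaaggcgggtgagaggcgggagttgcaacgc

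In Fam183b the X-box spans bases -16 to -4 from the start and in Pifo bases -20 to -7. The arm lies at -15 to -9 in Tekt1, at -19 to -13 in Iqcg and at -27 to -21 in Kif9, which has a further one after its start. In Drc1 it lies at -12 to -6 on the other strand and therefore reads TGGCAAC in the line above. In Sntn it lies farther upstream, at -66 to -60, and in Ccno at -219 to -213, with no match nearer to the start. The same arm was found before genes that were lower in LL and before Ccno, and whether it bears on their levels was not tested.

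The dynein arm genes are the motors of the beat, and the heavy chains had the lowest differences as a group. All 6 heavy chains were lower in LL, with a median LL minus WW difference of -1.25 and a range of -1.58 to -0.59. Dnah2, an inner arm heavy chain, had levels of -0.18 and -0.12 in LL, 1.25 and -0.04 in WL, 1.19 and 1.23 in LW, and 1.40 and 1.46 in WW. Dnah5, an outer arm heavy chain, had -0.66 and -0.88 in LL, 0.98 and -0.86 in WL, 0.99 and 0.62 in LW, and 0.66 and 0.82 in WW. In both genes the LL arrays and WL replicate 2 were below 0 and the other 5 arrays were above 0.6. The LL minus WW differences were -1.58 for Dnah2 (SE 0.389, limma adjusted p = 0.0892, and 0.00189 without both WL arrays) and -1.51 for Dnah5 (SE 0.553, limma adjusted p = 0.172, and 0.00458 without both WL arrays). The outer arm chains Dnah11 and Dnah9 had differences of -1.39 and -0.86, and the inner arm chains Dnah6 and Dnah7b had -1.11 and -0.59. Mouse has close copies of Dnah7b, and how far its probe also takes up their RNA was not tested. The Dnah2 and Dnah5 probes lie at chr11:69234345-69234404 and chr15:28401496-28401555.

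The smaller dynein subunits and docking proteins had a median difference of -0.69, and all 6 were lower in LL, from -0.88 to -0.31. Dynlrb2, a roadblock light chain, had 3.14 and 3.45 in LL, 4.16 and 3.06 in WL, 4.25 and 4.23 in LW, and 4.09 and 4.25 in WW. Dnali1, an inner arm light intermediate chain, had 0.91 and 1.01 in LL, 1.85 and 0.77 in WL, 1.76 and 1.60 in LW, and 1.76 and 1.76 in WW. For both, WL replicate 2 lay below the LL arrays and no LL array reached a WW array. Their LL minus WW differences were -0.88 (SE 0.352) and -0.80 (SE 0.335), with limma adjusted p-values of 0.195 for Dynlrb2 and 0.207 for Dnali1. The docking protein genes Armc4 and Ccdc114 had differences of -0.78 and -0.31, and the outer arm intermediate chains Dnaic1 and Dnaic2 had -0.60 and -0.41.

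The dynein assembly factors, which fold and preassemble the arms in the cytoplasm, were split. Zmynd10 had -0.53 and -0.33 in LL, 0.13 and -0.89 in WL, 0.02 and -0.04 in LW, and 0.19 and 0.16 in WW, a difference of -0.60 (SE 0.321, limma adjusted p = 0.283). Lrrc6 had -2.70 and -2.77 in LL, -2.62 and -2.88 in WL, -2.43 and -2.88 in LW, and -2.64 and -2.87 in WW. Its groups overlapped, with a difference of 0.02 (SE 0.203, limma adjusted p = 0.951) whose sign turned under other settings. The annotated ends of the Lrrc6 probe, 66212089 and 66228556 on chromosome 15, are far more than a probe's length apart, so the probe is annotated across a gap.

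Ccdc39 and Ccdc40 set the spacing of the arms along the doublet, and Drc1 and Iqcg belong to the nexin-dynein regulatory complex. All 4 were lower in LL, from -0.90 to -0.47. Drc1 had 1.91 and 1.90 in LL, 2.90 and 1.76 in WL, 2.80 and 2.70 in LW, and 2.66 and 2.96 in WW. Iqcg had -0.02 and -0.01 in LL, 0.75 and -0.13 in WL, 0.58 and 0.57 in LW, and 0.55 and 0.78 in WW. The LL mice were nearly alike in both genes and WL replicate 2 was the lowest array. The LL minus WW differences were -0.90 for Drc1 (SE 0.358, limma adjusted p = 0.192) and -0.68 for Iqcg (SE 0.287, limma adjusted p = 0.207).

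Radial spoke heads and the central pair carry the signal that times the arms, and all 7 of their genes were lower in LL, with a median of -0.72 and a range of -1.01 to -0.32. Rsph4a, a spoke head gene, had -1.56 and -1.68 in LL, -0.48 and -1.73 in WL, -0.48 and -0.69 in LW, and -0.57 and -0.64 in WW. Spag16, a central pair gene, had -2.62 and -2.73 in LL, -1.56 and -2.44 in WL, -1.23 and -1.76 in LW, and -1.78 and -1.58 in WW. LL lay about 1 log2 unit below WW in both, at -1.01 for Rsph4a (SE 0.381, limma adjusted p = 0.178) and -1.0 for Spag16 (SE 0.323, limma adjusted p = 0.144). The spoke head genes Rsph1 and Rsph9 had -0.76 and -0.48, and the central pair genes Spag17, Spag6 and Hydin had -0.72, -0.60 and -0.32. The Spag6 probe lies on chromosome 16, and RefSeq now names that gene Spag6l.

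The last 11 genes encode tektins, which form filaments in the wall of the doublets, and other microtubule or ciliary proteins. All 11 were lower in LL, from -1.70 to -0.13. Tppp3, a tubulin polymerisation factor that other cell types also express, had 4.88 and 4.37 in LL, 6.27 and 4.73 in WL, 6.36 and 6.33 in LW, and 6.37 and 6.29 in WW. Sntn, which encodes sentan of the ciliary tip, had -2.51 and -2.84 in LL, -1.38 and -2.31 in WL, -1.36 and -1.46 in LW, and -1.43 and -1.49 in WW. The 5 arrays of WL replicate 1, LW and WW were nearly level in both genes. The LL minus WW difference of Tppp3 was the most negative of the 40, at -1.70 (SE 0.479, limma adjusted p = 0.115, and 0.00439 without both WL arrays), and that of Sntn was -1.21 (SE 0.308, limma adjusted p = 0.0943, and 0.00504 without both WL arrays). Their probes lie at chr8:107991392-107991451 and chr14:14514967-14515026. Kif9, a kinesin of the central apparatus chosen here after its values were seen, had the smallest adjusted p of the 40 in this comparison, at 0.0826 with a difference of -1.14 (SE 0.269). The tektins had -0.78 (Tekt2), -0.41 (Tekt4) and -0.38 (Tekt1). Fam183b, Pifo, Mns1 and Ccdc113 had -1.06, -0.77, -0.68 and -0.67, and Ak7, an adenylate kinase, had -0.13 with groups that overlapped.

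More than 1 probe per gene could be compared for part of the set. The array held 75 probes for the 40 genes, of which 64 passed the background filter, and 61 of the 64 were lower in LL than in WW. Of the 16 genes with several such probes, 15 had all of them below 0. The exception was Spag16, whose brightest probe gave -1.0 and 1 of whose dimmer probes was above 0. Among the 24 dimmer probes 23 were below 0.

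**Figure D4:**
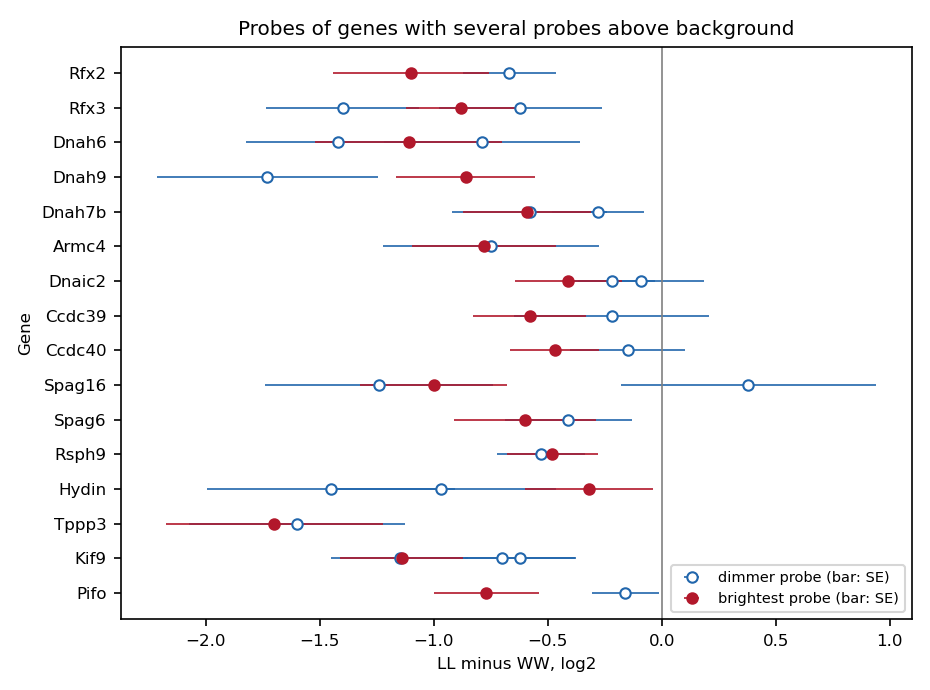
Points give LL minus WW on the log2 scale for each probe of the 16 genes with several probes above background, with the standard error as the bar. Filled points are the brightest probe of a gene, which carries its level in the text. All probes but 1 of Spag16 lie left of 0.

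The direct comparison of LL with WL asks what receptor-bearing marrow adds when the recipient carries the receptor, and it rests on the WL mice that were unlike each other. The median LL minus WL difference over the 40 genes was -0.32, with 36 below 0, beside 43.1% of all genes. None passed limma's test (adjusted p from 0.296 to 0.988, with 2 at an unadjusted p under 0.05, beside 14.5% of all genes), beside 1.72% of all genes called. Every LL array lay below every WL array for 11 genes, beside 14.3% of all genes. The donor by recipient interaction, which is LL minus LW less WL minus WW, had a median of -0.32 and 33 genes below 0, beside 42.6% of all genes, and none passed (adjusted p from 0.638 to 0.998, with 0 at an unadjusted p under 0.05, beside 9.14% of all genes), beside 0.0619% of all genes called. Without WL replicate 2, 28 genes passed as lower (beside 8.94% of all genes) and 1 as higher (beside 10.8%) between LL and WL, and 14 passed as lower in the interaction (beside 3.91%). Without WL replicate 1 none passed in either (beside 9.54% and 0.863%), with medians of 0.12 and 0.10.

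Other genes of the axoneme were mostly lower in LL as well. Of 45 further motile axoneme genes 40 had LL minus WW differences below 0, beside 47.6% of all genes, with a median of -0.55. None passed the test among all arrays, and 26 passed as lower without both WL arrays, beside 14.8% of all genes, and 0 as higher, beside 17.3%. The smallest p-values belonged to Dnajb13, a radial spoke gene, with a difference of -0.98 (SE 0.220, limma adjusted p = 0.0739), and to Ccdc42, with -0.65 (SE 0.197, limma adjusted p = 0.131). On single arrays the medians of this list relative to the WW mean were -0.56 and -0.60 in LL, -0.01 and -0.65 in WL, and 0.08 and -0.04 in LW.

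Genes of intraflagellar transport and the BBSome, the transport machinery of all cilia, sensory ones included, had a median LL minus WW difference of -0.10. Of these 36 genes 24 were below 0, beside 47.6% of all genes. Kif17, a kinesin of the intraflagellar transport family, rose by 1.51 in LL (SE 0.273, limma adjusted p = 0.0465, beside 1.21% of all genes called higher), with levels of -1.87 and -1.92 in LL lungs and of -3.45 and -3.36 in WW lungs. No other gene of this list passed with all arrays. Without both WL arrays 6 passed as lower, beside 14.8% of all genes, and 5 as higher, beside 17.3%.

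Among further regulators and centriole genes, Plk4 rose in LL, and Gmnc rose in LL against LW and WL. In this list of 16 measured genes the median LL minus WW difference was 0.22. Of these genes 9 were above 0 and 7 below, beside 47.6% of all genes below 0. With all arrays 1 passed as higher, beside 1.21% of all genes. Without both WL arrays 2 passed as lower, beside 14.8% of all genes, and 6 as higher, beside 17.3%. Plk4, the kinase that starts centriole duplication in dividing cells as well as in multiciliated cells, rose by 1.5 (SE 0.268, limma adjusted p = 0.0452). Its levels were -1.70 and -1.72 in LL, -2.69 and -1.95 in WL, -3.31 and -3.08 in LW, and -3.37 and -3.04 in WW. Gmnc, which acts upstream of Mcidas and Foxj1, had -2.43 and -2.43 in LL, -3.69 and -3.49 in WL, -3.34 and -3.39 in LW, and -3.09 and -3.42 in WW. It rose in LL by 0.93 against LW (limma adjusted p = 0.0464) and by 1.16 against WL (limma adjusted p = 0.0322), and its LL minus WW difference of 0.83 had an adjusted p of 0.0573. Unlike for the axoneme genes, both WL mice were low for Gmnc.

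**Figure D5:**
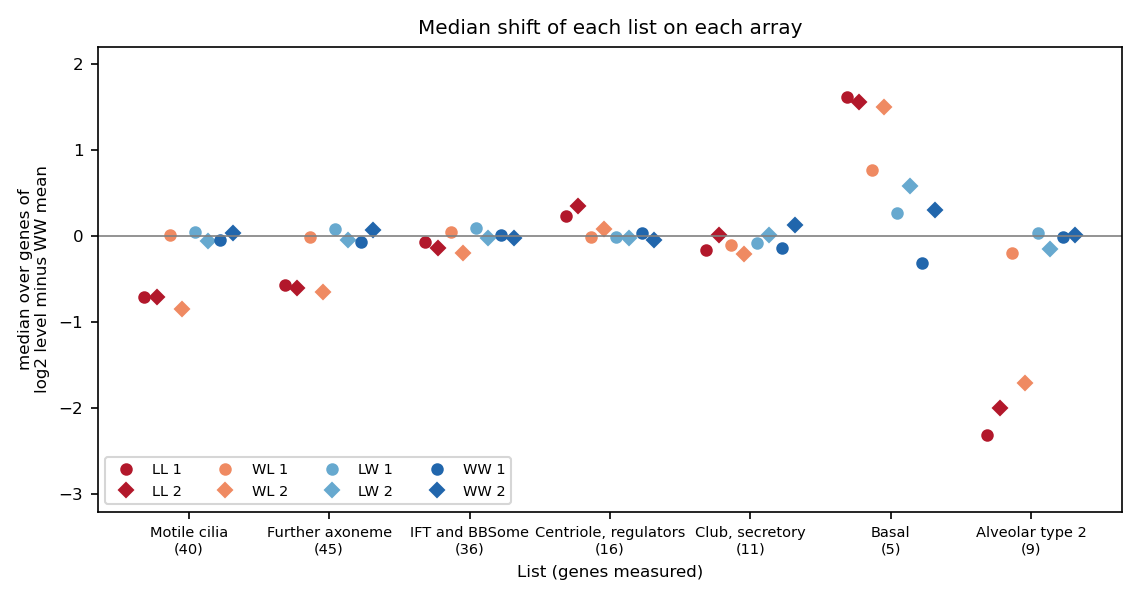
Each point is the median, over the measured genes of a list, of the log2 level minus the WW mean on 1 array, with the number of genes in parentheses. The motile cilia and further axoneme lists are between -0.84 and -0.56 in LL and WL replicate 2. The transport and club cell lists lie within about 0.2 of 0 on all arrays. In LL and WL replicate 2 the alveolar type 2 list lies between -2.31 and -1.71. The basal cell list lies above 0 on all LL, WL and LW arrays, and is highest in LL and WL replicate 2.

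Some lists of markers of other lung cells moved alike in LL and WL replicate 2, and others did not. Their part in the values of the cilia genes was not tested. Of 11 club and secretory airway cell markers 6 were below 0, beside 47.6% of all genes, and none passed, with a median LL minus WW difference of -0.10. Without both WL arrays 3 passed as lower, beside 14.8% of all genes, and 1 as higher, beside 17.3%. Per array the median of that list relative to the WW mean was -0.16 and 0.02 in LL, -0.10 and -0.21 in WL, and -0.08 and 0.02 in LW. Within it Scgb1a1, the secretoglobin that defines club cells, had 9.44 and 9.45 in LL arrays against 9.49 and 9.68 in WW arrays, and Cyp2f2, a club cell cytochrome, had 6.31 and 6.60 in LL arrays against 8.26 and 8.22 in WW arrays (both named after their values were seen). Of 5 basal airway cell markers 4 were above 0, and 1 passed as higher, beside 1.21% of all genes. It was Krt14, a keratin of basal cells, which rose by 2.78 in LL (SE 0.372, limma adjusted p = 0.0223). Without both WL arrays 3 basal markers passed as higher, beside 17.3% of all genes.

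All 9 alveolar type 2 cell markers were below 0 in LL minus WW, with a median of -2.22. Lyz2, which fell by 4.27 (SE 0.408, limma adjusted p = 0.0122), was the 1 that passed with all arrays, beside 1.92% of all genes called lower. Lyz2 is also a gene of myeloid cells, and how far its fall belongs to type 2 cells was not tested. Without both WL arrays 8 of the 9 passed as lower, beside 14.8% of all genes. The medians of this list relative to the WW mean were -2.31 and -1.99 in LL, -0.19 and -1.71 in WL, and 0.04 and -0.15 in LW, so WL replicate 2 was low here as well. Of 6 alveolar macrophage markers 4 passed as lower in LL (Siglecf, Itgax, Mrc1 and Ear2), beside 1.92% of all genes. The same 4 passed as lower without both WL arrays, beside 14.8% of all genes. Of the rest of the list, Marco was at -1.5 (SE 1.5) and Fabp4 went the other way, at 0.86 (SE 0.491). Neither passed in either fit. Siglecf was above background on 6 of the 8 arrays. On single arrays the median of the macrophage list relative to the WW mean was 0.51 in WL replicate 1 and -0.77 in WL replicate 2.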

How the data were processed

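Cy3-labelled RNA of whole lung was read on 8 one-colour arrays. Per the file headers the authors' intensity values are from Agilent Feature Extraction 11.5.1.1, background-subtracted and unscaled between arrays. The authors' series table gives log2 values, close to those computed here. The intensities of a probe's uniform spots were averaged, taken to log2, and reduced by each array's 75th percentile. Probes well above background on both arrays of a group were kept, and the brightest probe stood for a gene (25830 genes). limma 3.58.1 (R 4.3.3) fitted 4 group means to all arrays, with Benjamini-Hochberg adjusted p-values taken across the whole table and called under 0.05 (residual degrees of freedom 4, prior 2.19). The number of arrays limits the precision. The genes and lists were chosen with earlier results of these data known. Named genes are the regulators and, per role, the 2 with the largest absolute LL minus WW difference, and in other lists those called in any comparison or else the 2 with the smallest p. Samples were grouped by their labels. Alternatives varied background correction, scaling, filter, probe choice, the table used, replicate block and arrays fitted. All 40 genes matched a RefSeq entry (GRCm38.p6), 36 by accession and 4 by symbol; the entry for Spag6 is named Spag6l. Same-numbered mice did not deviate together (correlations from -0.097 to 0.19).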

Additional observations from a re-analysis of the deposited data

Results flagged for a closer look

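For 4 of the 16 genes named above the arrays of 1 group lay below the mean of the group they were set against, and those of another group above it, under the same contrast. The shifts above the mean were small, from 0.02 to 0.24, and with all arrays no gene of the 40 passed the test of LW against WW or of WL against WW. None of these differences passed limma's interaction test, whose adjusted p-values over all genes are given. Exchanging LysM-DTR for wild-type marrow gave Foxj1 -0.38 in LysM-DTR recipients (LL minus WL) and 0.05 in wild-type recipients (LW minus WW), a difference of -0.43 (adjusted p = 0.644). The recipient's genotype gave Foxj1 -0.19 with LysM-DTR marrow (LL minus LW) and 0.24 with wild-type marrow (WL minus WW), which is the same difference of -0.43. For Tppp3 the marrow's genotype gave -0.87 in LysM-DTR and 0.02 in wild-type recipients, a difference of -0.89 (adjusted p = 0.819). For Dynlrb2 the values were -0.31 and 0.07, a difference of -0.38 (adjusted p = 0.921), and for Sntn -0.83 and 0.05, a difference of -0.88 (adjusted p = 0.638). Each of them uses the mean of the WL mice, which were unlike each other for Tppp3, Dynlrb2 and Sntn.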

How the results depend on the processing

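Values are LL minus WW unless another comparison is named. Over all settings 37 to 39 of the 40 genes were below 0, and no gene of the 40 was called in any of the 6 comparisons except where WL arrays were left out or the compared groups were fitted alone. The median was -0.58 with normexp and -0.78 with the percentile taken over probes detected on all arrays, and for LL minus LW it was -0.57, -0.78, and -0.64 with the mean of a gene's probes. With the arrays of the compared groups alone, 28 genes passed as lower and 1 as higher, and 29 and 1 against LW. Without both WL arrays the counts were 32 and 1, and 33 and 1 against LW. Lrrc6, at 0.02, turned to -0.02 with the percentile over detected probes, to -0.01 without LL replicate 1 and to -0.09 without WW replicate 2 (0.14 without WW replicate 1); the cause was not tested.

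Leaving out each array in turn, with the lone mouse assumed to vary like the other groups, gave 0 to 32 lower, 0 to 1 higher and a median of -0.80 to -0.69. The ranges were 0 to 33, 0 to 1 and -0.84 to 0.01 for WL minus WW, 0 to 0, 0 to 0 and -0.05 to 0.05 for LW minus WW, 0 to 33, 0 to 1 and -0.78 to -0.65 for LL minus LW, 0 to 28, 0 to 1 and -0.78 to 0.12 for LL minus WL, and 0 to 14, 0 to 0 and -0.78 to 0.10 for the interaction. The counts above 0 all came without a WL array; between LL and WW or LW, leaving out 1 WL array is the same fit as leaving out both. With the replicate number as a block, 0 of the 40 genes were called in any comparison, and over all genes 447 were called between LL and WW, against 808 without the block. Same-numbered mice did not deviate together, with correlations of deviations from -0.097 to 0.19. For single named genes 229 values kept their side of the threshold, 56 newly passed it and 3 turned. A slide or scan block was not run, since there was 1 slide and 1 scan. With 2 mice a group, and WL mice that differ, a miss of the threshold does not show that levels were alike.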

Other observations

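Genes next to Ccno in RefSeq order were looked at after its values were seen. Its neighbour Mcidas, a regulator of the same step, had 5.80 and 5.49 in LL, 5.62 and 5.21 in WL, 5.85 and 5.94 in LW, and 5.86 and 6.02 in WW, a LL minus WW difference of -0.30 (SE 0.198, limma adjusted p = 0.374). Cdc20b, the gene after Mcidas, was above background on 4 of the 8 arrays. Other centriole and regulator genes, also named after their values were seen, had differences of 2.32 for Foxn4, a forkhead factor known from Xenopus multiciliated cells (SE 0.661, limma adjusted p = 0.117), of 1.41 for Ccdc67, a deuterosome gene (SE 0.377, limma adjusted p = 0.102), and of 0.83 for E2f4 (SE 0.254, limma adjusted p = 0.133). Of the 16 measured genes of that list 7 were below 0. The lowest was Rfx1, at -0.58 (SE 0.156, limma adjusted p = 0.102). Ccdc78 was at -0.53 (SE 0.226, limma adjusted p = 0.21) and Cep152 at -0.51 (SE 0.463, limma adjusted p = 0.501).

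Over all genes 47.6% of the LL minus WW differences were below 0. Among 5 neuroendocrine markers 4 were above 0 in LL minus WW and none passed (median 1.1, smallest p-values in Uchl1 at 1.30 and Chga at 1.1). Without both WL arrays 3 of them passed as higher, Chga included, beside 17.3% of all genes. Chga was above background on 4 of the 8 arrays. Its WW levels of -5.61 and -5.47 lay below the lowest signal above background on those arrays (-4.57 and -5.16). Mesothelial markers were above 0 for 4 of 4, and Wt1, a mesothelial transcription factor, rose by 1.83 (SE 0.172, limma adjusted p = 0.0122, beside 1.21% of all genes called higher). Without both WL arrays 3 of the 4 passed as higher, beside 17.3% of all genes. The medians of this list relative to the WW mean were 1.44 and 1.16 in LL, 0.11 and -0.26 in WL, and 0.25 and -0.02 in LW. Of 8 alveolar type 1 markers 7 were above 0 and none passed against WW. Without both WL arrays 5 passed as higher, beside 17.3% of all genes. Aqp5, a water channel, rose by 0.91 against LW (limma adjusted p = 0.0361). The medians of the type 1 list relative to the WW mean were 0.49 and 0.39 in LL, -0.19 and -0.68 in WL, and -0.13 and -0.15 in LW.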
